A study of Mus musculus with 4 samples.

Results

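The genes of glycolysis and of the transcriptional response to low oxygen were followed through RNA-seq of PSC-derived SG placodes and embryonic SMGs. The list held 37 gene symbols, matched by name, and every listed symbol was present in the table of gene values. Because Aldoa was entered under 2 Ensembl identifiers, the list corresponded to 38 of 24771 features. The placodes were aggregates grown from 129w2, a line of mouse embryonic stem cells, and total RNA was taken on day 10. Aggregates were seeded at 3000 cells per well and kept with 2% Matrigel. The medium received BMP4 (2 ng/ml) on day 3 and both bFGF (25 ng/ml) and RA (1 μM) on day 4. From day 6 it held FGF10 (200 ng/ml). The reference tissue was the SMG of mouse embryos at E12.5, with no culture treatment of its own. Each group had 2 samples. Nothing in the sources used here says whether the samples of a group came from separate cultures or litters, so p-values measure only the spread between these samples, which may be technical. The placodes stand for a single cell line. Mouse strain, pooling and dissection of the SMGs, and the oxygen level of the cultures, are not given in the sources used here, and the labels' account of RNA extraction for the SMGs repeats that of the placodes.

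Glycolysis breaks glucose down to pyruvate in the cytosol, and lactate dehydrogenase converts pyruvate to lactate, which monocarboxylate transporters carry out of the cell. When oxygen is scarce, the α subunits of the hypoxia-inducible factors (HIFs) escape hydroxylation by prolyl hydroxylases, escape degradation by the VHL ubiquitin ligase, and pair with ARNT to bind DNA. HIF targets include most glycolytic enzymes, the glucose transporter genes, Vegfa and the hydroxylases themselves. HIF-α is regulated mainly at the protein level, which RNA-seq does not measure.

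Values were FPKM, fragments scaled by transcript length and sequencing depth, so that levels can be compared between genes. The sums per sample ranged from 361963 to 384773, and the number of sequenced fragments behind them is unknown. Differences were tested with limma on log2(FPKM + 1) over the 13193 features with a mean FPKM of at least 1, with Benjamini-Hochberg adjustment over all of them. A log2 fold change is the placode mean minus the SMG mean on that scale, which understates the difference of genes with low values. Pearson's r across tested features was 0.994 for the pair of placode samples and 0.992 for the SMG pair. The groups also differed in cell type markers. All 12 neuron markers and all 8 neural progenitor markers were higher in the placodes. Summed FPKM of the neuron markers was 1548 and 1568 in the placodes, against 166 and 152 in the SMGs. Of the 8 salivary epithelium markers, all were lower in the placodes, where their summed FPKM was 5.43 and 5.90, against 588 and 570 in the SMGs, and Krt5, Krt14 and Krt15 were listed at 0. The study itself reported higher Krt5 and Krt14 by qPCR after FGF10 than without it, and Krt5 protein on day 10. Sox9 and Krt19, which the study also used as markers, are not in this list. The marker with the highest mean FPKM over the 4 samples of both groups was Tubb3 (neurons), Fabp7 (neural progenitors), Pitx1 (salivary epithelium), Hbb-y (erythroid cells), Cdh5 (endothelium), Col3a1 (mesenchyme), Actc1 (skeletal muscle) and Csf1r (macrophages). Pitx1, a transcription factor of the oral ectoderm, was at 0.539 and 0.429 FPKM in the placodes and at 245 and 253 in the SMGs. Erythroid markers summed to 2968 and 2977 FPKM in the SMGs and to 0.224 and 0.428 in the placodes. Proliferation markers, with Pcna the highest by that mean, were lower for 8 of 8 genes, with a median log2 fold change of -0.89. Endothelial, mesenchyme, skeletal muscle and macrophage markers were lower in the placodes for each of their tested members. The part of these cell types in the differences below was not tested, and in bulk samples fewer cells of a type and less RNA per cell cannot be told apart.

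Most of the listed genes were higher in the placodes. Of the 38 features, 37 passed the minimum of mean FPKM and 35 of them differed at an adjusted p below 0.05, 32 higher and 3 lower. Across all tested features, 76.2% differed at this threshold, 35.7% higher and 40.4% lower, so most features differed at this threshold whatever their function. At least 2-fold differences past the threshold were found for 32 members, 30 higher and 2 lower, against 29.4% of all tested features, 14.1% higher and 15.2% lower. The median log2 fold change was 2.01 over the tested members and -0.05 over all tested features. The groups' values were fully separate for 36 of the 37 features, 32 of them higher, where the share over all tested features was 88.4%, and 41.6% for higher values. The 3 members that were lower were Ldhb, Hif1a and Epas1, and those that did not pass the test were Pfkm and Slc16a1. Car9 was the member below the minimum.

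**Figure D1:**
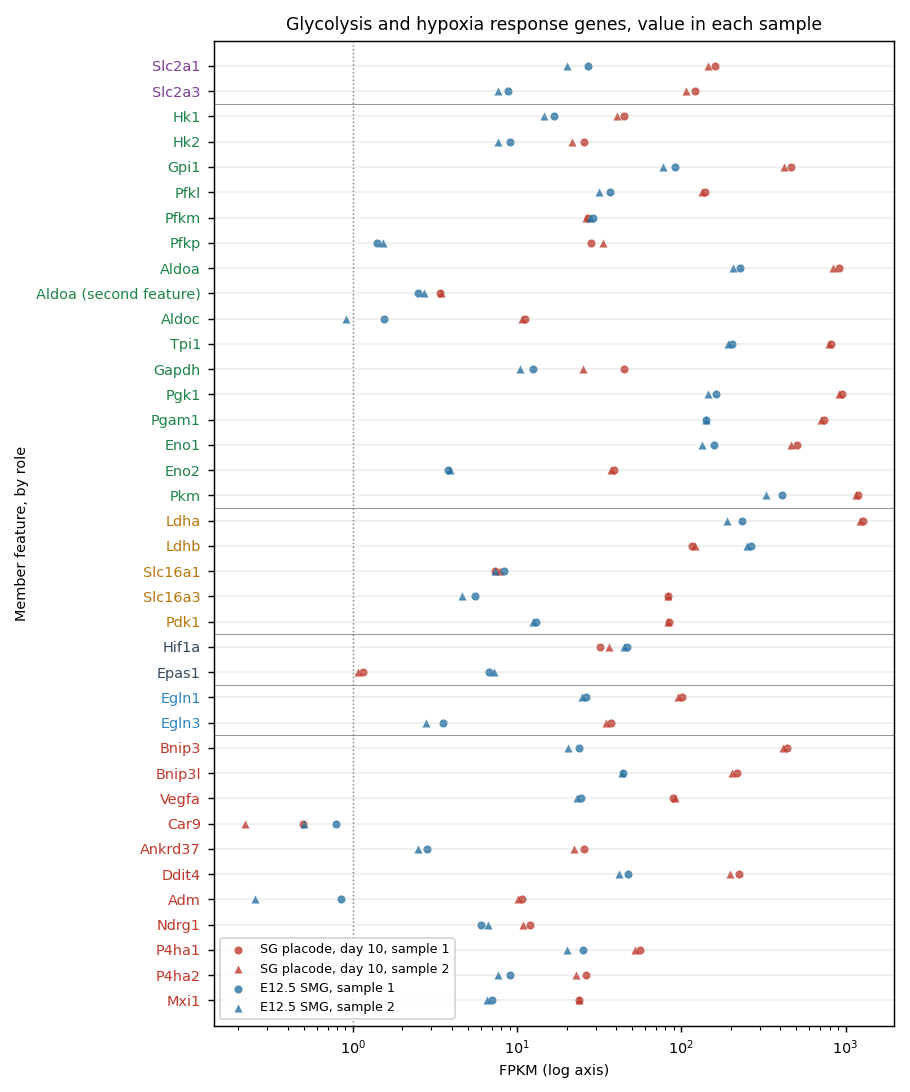
FPKM (log axis) of each of the 38 member features in the 4 samples, with genes grouped by role between horizontal lines and name colours marking the role. Red symbols are SG placode samples and blue symbols SMG samples, with circles for sample 1 and triangles for sample 2, and the dotted line marks an FPKM of 1. The placode symbols lie to the right of the SMG symbols for most rows, and to the left for Ldhb, Hif1a and Epas1, which passed the test, for Pfkm, which did not, and for Car9, which was not tested.

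The genes of glucose uptake were among the members with the widest gaps. Slc2a3 encodes GLUT3, a high-affinity glucose transporter best known from neurons, and maps to chromosome 6 (122727809 to 122801640 on GRCm38, the build of all positions given here). It reached 122 and 107 FPKM in the placodes, with 8.83 and 7.63 in the SMGs. Both placode values were far above both SMG values, with a log2 fold change of 3.65 (SE 0.09, adjusted p = 5.43e-07). SE stands for the standard error of the log2 fold change. Slc2a1, which encodes the widely expressed transporter GLUT1, had an FPKM of 161 and 144 in the placodes and of 27.0 and 20.1 in the SMGs. That corresponds to a log2 fold change of 2.66 (SE 0.13, adjusted p = 8.03e-06). Together the pair summed to 267 ± 21.8 FPKM in the placodes (SD, n = 2) and, for the SMGs, to 31.7 ± 5.72 (SD, n = 2).

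The enzymes of the glycolytic pathway were higher in the placodes almost throughout. Of the 16 features of these enzymes, 15 were higher, 14 of them by at least 2-fold, and none was lower past the threshold. Their median log2 fold change was 1.98. Over all tested features, 35.7% were called higher, 14.1% by at least 2-fold, and the median was -0.05. Summed over the enzymes, FPKM came to 5952 and 5640 in the placodes (1.63% and 1.56% of all FPKM) and to 1506 and 1323 in the SMGs (0.392% and 0.354%). The ratio of the group means was 4.10. With 2 samples per group the smallest two-sided exact permutation p is 0.333, so sums and shares are given without a test.

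Hexokinase traps glucose in the cell as glucose 6-phosphate. Hk1 had an FPKM of 44.8 and 40.6 in the placodes and 16.8 and 14.7 in the SMGs, and Hk2, the isozyme more often linked to HIF, had 25.6 and 21.7 against 9.10 and 7.64. Their log2 fold changes were nearly the same, at 1.39 (SE 0.08, adjusted p = 1.67e-05) for Hk1 and 1.39 (SE 0.11, adjusted p = 5.82e-05) for Hk2. These were the smallest differences among the enzymes that passed the 2-fold limit. The isomerase gene Gpi1 followed with 467 and 423 FPKM in the placodes and 91.2 and 76.9 in the SMGs, which gave a log2 fold change of 2.39.

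Phosphofructokinase commits the sugar to glycolysis, and its subunit genes split. Pfkp, the platelet-type subunit, was at an FPKM of 28.3 and 33.5 in the placodes and of 1.39 and 1.51 in the SMGs, which gave a log2 fold change of 3.70 (SE 0.10, adjusted p = 7.88e-07). The liver-type subunit gene Pfkl had the highest level of the 3 in each sample, at 139 and 133 FPKM in the placodes and 36.9 and 31.7 in the SMGs (log2 fold change 1.96). The muscle-type subunit gene Pfkm had 27.2 and 26.4 FPKM in the placodes and 28.9 and 27.8 in the SMGs. Its log2 fold change was -0.08 (SE 0.05, adjusted p = 0.222), which did not pass the threshold. Skeletal muscle markers summed to 2.99 and 2.59 FPKM in the placodes and to 185 and 131 in the SMGs. Their part in the Pfkm values was not tested.

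Aldolase splits the phosphorylated hexose, and Aldoa carried nearly all of its RNA. The main Aldoa feature (ENSMUSG00000030695) was at an FPKM of 909 and 842 in the placodes and 228 and 206 in the SMGs, with a log2 fold change of 2.01 (SE 0.08, adjusted p = 2.58e-06). A second feature of that name (ENSMUSG00000114515), which lies beside the first, from 126800790 to 126809108 on chromosome 7, had an FPKM of 3.39 and 3.41 in the placodes and 2.49 and 2.72 in the SMGs and differed by 0.29 on the log2 scale (adjusted p = 0.0365), a call that was lost with any sample left out. Aldoc, the brain-type isozyme, had 11.2 and 10.7 FPKM in the placodes and 1.54 and 0.912 in the SMGs, which gave a log2 fold change of 2.44 (adjusted p = 1.86e-05). Tpi1, which interconverts the resulting triose phosphates, had 819 and 794 FPKM against 205 and 193, and a log2 fold change of 2.02.

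In the later steps of the pathway, Pgk1 and Pgam1 had placode means 6.07 and 5.14 times the SMG means. Phosphoglycerate kinase, encoded by Pgk1 on chromosome X from 106187100 to 106203699, reached 951 and 914 FPKM in the placodes and 162 and 145 in the SMGs (log2 fold change 2.60, SE 0.07, adjusted p = 8.06e-07). For the mutase gene Pgam1 the values were 742 and 711 against 141 and 142 (log2 fold change 2.35, adjusted p = 4.39e-07). Eno1, the ubiquitous enolase gene, was at 509 and 467 FPKM in the placodes and 158 and 133 in the SMGs (log2 fold change 1.74). The neuronal enolase gene Eno2 was lower in level but further apart, at 38.8 and 37.3 against 3.78 and 3.88 (log2 fold change 3.01, SE 0.06, adjusted p = 3.70e-07). Neuron markers were higher in the same samples, and their part in the values of Slc2a3, Aldoc and Eno2 was not tested. Pkm, whose pyruvate kinase isoforms are not separated at the gene level, had 1193 and 1158 FPKM in the placodes and 408 and 326 in the SMGs (log2 fold change 1.68).

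Gapdh stood apart from the other enzymes in its spread. It had 44.6 and 25.0 FPKM in the placodes and 12.4 and 10.4 in the SMGs, well below the level of Tpi1 and Pgk1, its neighbours in the pathway. The log2 fold change was 1.47 with an SE of 0.25 (adjusted p = 1.91e-03), and the call was lost when no minimum of FPKM was set (adjusted p = 0.0765). In GENCODE M21, 213 annotated pseudogenes share at least 1 run of 50 bases with the Gapdh transcripts, so that the assignment of its fragments is uncertain. Some other members also share sequence with copies. Of the 50-base runs of their transcripts, 53.9% for Pgk1, 36.2% for Pgam1, 26.0% for Eno1, 25.8% for Pkm, 20.99% for Ldhb and 20.8% for Bnip3l occur in another annotated gene. Eno1b, an Eno1 retrogene looked up after this comparison, was at 315 and 317 FPKM in the placodes and at 21.9 and 15.0 in the SMGs. Without the 9 members that share more than 20% of these runs or of their exon bases with another gene, 24 of the remaining 28 tested features were higher and 2 were lower. Gapdh was the reference gene of the qPCR measurements in the study. Those measurements compared aggregates or stem cells with each other and not with SMGs, so the difference given here does not bear on them. Among 15 other commonly used reference genes, 5 were higher and 10 lower in the placodes past the threshold, with a median log2 fold change of -0.46. Of all tested features, 35.7% were called higher and 40.4% lower. Actb was at 418 and 418 FPKM in the placodes and at 631 and 639 in the SMGs.

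**Figure D2:**
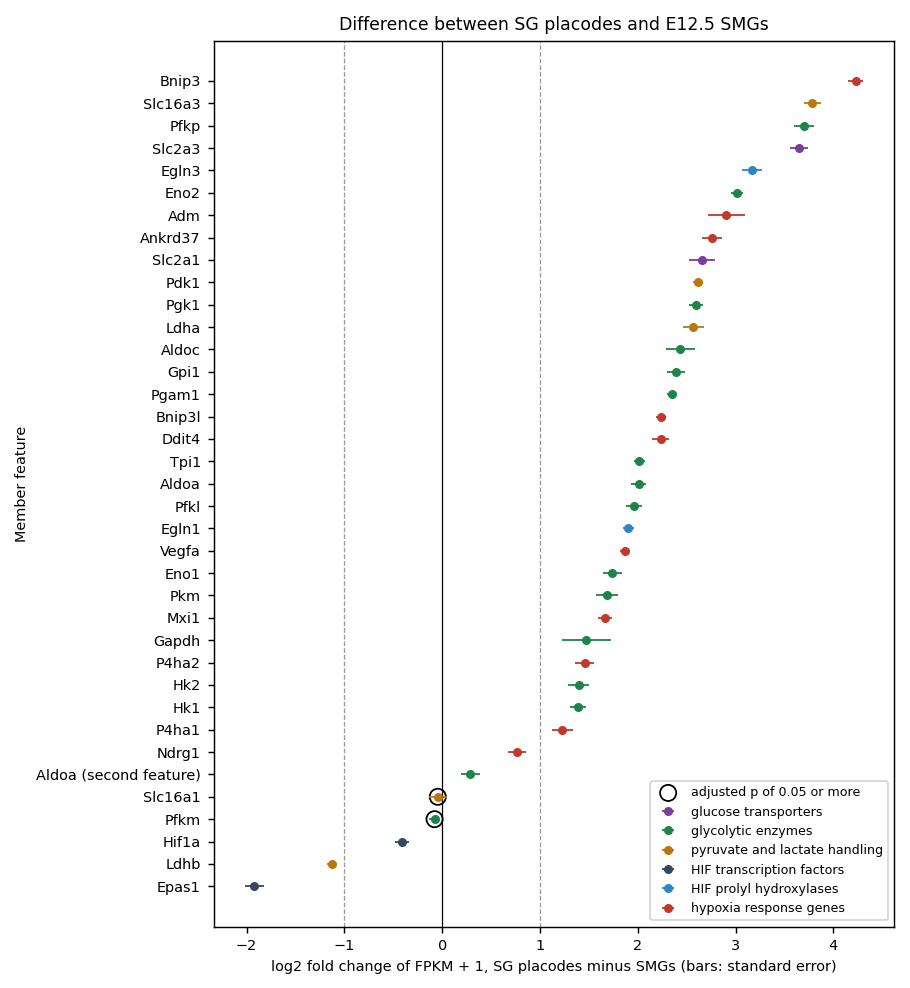
Log2 fold change of FPKM + 1, SG placodes minus SMGs, for the 37 tested member features, sorted and coloured by role, with bars for the standard error and dashed lines at a 2-fold difference. At this pseudocount of 1 Bnip3 has the highest value, at 4.23, and Epas1 the lowest, at -1.92, and rings mark Slc16a1 and Pfkm, whose adjusted p was 0.05 or more.

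Among the genes that decide the fate of pyruvate, Ldha, Slc16a3 and Pdk1 were higher in the placodes, Ldhb was lower and Slc16a1 did not pass the test. Ldha, the lactate dehydrogenase subunit known to favour lactate formation, lies on chromosome 7 from 46841475 to 46855627. It was the most abundant member in both placode samples, at 1285 and 1228 FPKM, with 234 and 190.3 in the SMGs (log2 fold change 2.57, SE 0.10, adjusted p = 3.35e-06). Ldhb, the subunit that predominates in oxidative tissue, went the other way, at 115 and 120.5 FPKM in the placodes and 266 and 252 in the SMGs (log2 fold change -1.13, SE 0.05, adjusted p = 6.42e-06). Of the lactate exporters, Slc16a3 (MCT4) had 82.5 and 82.7 FPKM in the placodes and 5.55 and 4.60 in the SMGs, which gave a log2 fold change of 3.79 (SE 0.08, adjusted p = 4.07e-07). Slc16a1 (MCT1), a transporter used for uptake as well as export, had 7.32 and 7.81 FPKM against 8.37 and 7.32, with overlapping groups (log2 fold change -0.05, SE 0.09, adjusted p = 0.673). Pdk1, whose kinase shuts off pyruvate dehydrogenase and so keeps pyruvate out of the mitochondria, was at 84.0 and 82.8 FPKM in the placodes and 13.0 and 12.47 in the SMGs (log2 fold change 2.62, SE 0.05, adjusted p = 2.76e-07).

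The shares of family members within a sample do not depend on the scaling between samples, and they differed between the groups in several families. Ldha made up 91.8% and 91.1% of the FPKM of Ldha and Ldhb in the placodes and 46.8% and 43.0% in the SMGs. Slc16a3 accounted for 91.9% and 91.4% of its pair with Slc16a1 in the placodes and 39.9% and 38.6% in the SMGs. Pfkm gave 13.9% and 13.7% of the phosphofructokinase FPKM in the placodes and 43.0% and 45.6% in the SMGs, while Pfkp held 14.5% and 17.4% against 2.07% and 2.48%. Slc2a3 contributed 43.2% and 42.7% of the glucose transporter pair in the placodes and 24.7% and 27.5% in the SMGs. By contrast, the hexokinase pair had nearly the same make-up in the 4 samples, with Hk1 between 63.6% and 65.8%, although its sum was 2.75 times as high in the placodes.

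**Figure D3:**
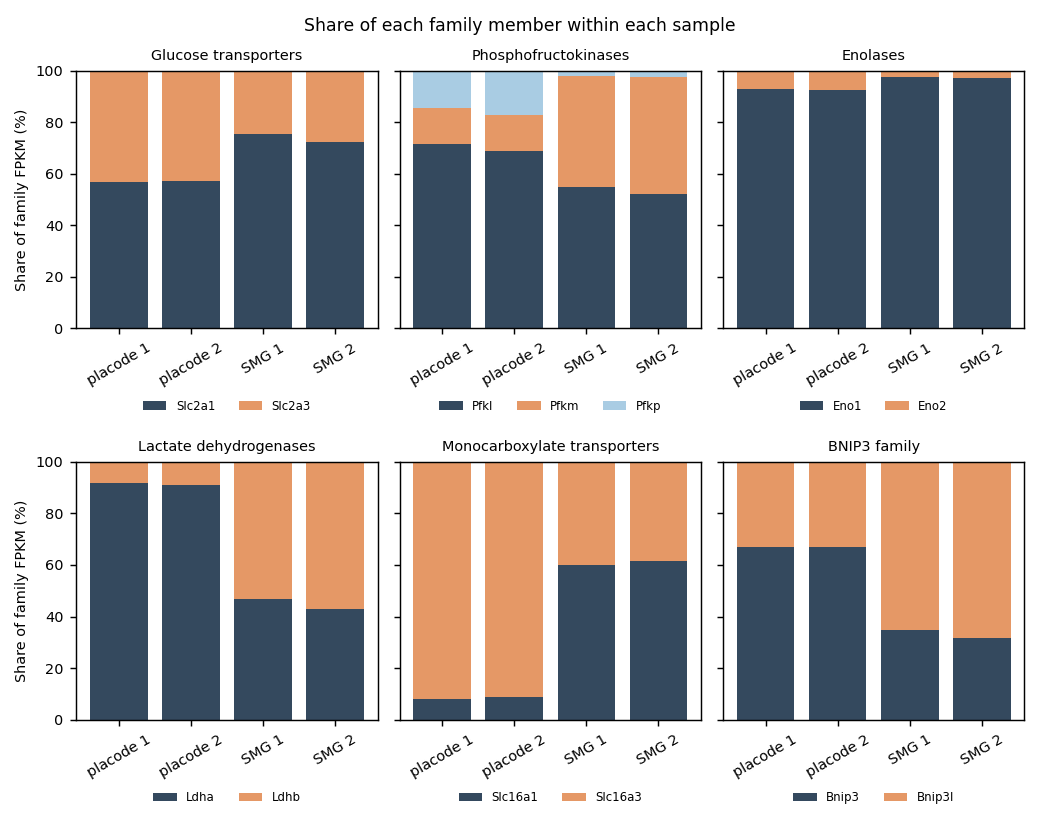
Share of each gene in the summed FPKM of its family (%, bars stacked to the whole), in each of the 4 samples, for 6 families. Ldha, Slc16a3 and Bnip3 make up the larger part of their pairs in both placode samples and the smaller part in both SMG samples.

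The genes of the HIF-α factors themselves were lower in the placodes. Hif1a had an FPKM of 32.2 and 36.3 in the placodes and 46.8 and 44.8 in the SMGs, which gave a log2 fold change of -0.41 (SE 0.07, adjusted p = 1.98e-03). Epas1, which encodes HIF-2α and is known for its expression in endothelium, was at 1.15 and 1.07 FPKM in the placodes and 6.73 and 7.25 in the SMGs (log2 fold change -1.92, SE 0.10, adjusted p = 9.47e-06). Endothelial markers were lower beside it for 8 of 8 genes, with a summed FPKM of 17.2 and 15.7 in the placodes and 164 and 175 in the SMGs, and their part in the Epas1 difference was not tested. The oxygen-sensing hydroxylases showed the opposite direction. Egln3 (PHD3) was at 37.4 and 34.8 FPKM in the placodes and 3.51 and 2.79 in the SMGs (log2 fold change 3.17, SE 0.10, adjusted p = 1.34e-06), and Egln1 (PHD2) at 101 and 95.2 against 26.2 and 24.8 (log2 fold change 1.90, SE 0.06, adjusted p = 9.26e-07). Both are themselves targets of HIF.

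Of the 11 other hypoxia response genes, 10 were tested, all 10 were higher in the placodes, and 9 of them by at least 2-fold. Their median log2 fold change was 2.05. The median of all tested features was -0.05, with 35.7% called higher and 14.1% higher by at least 2-fold. Bnip3, a mitophagy receptor, had the largest log2 fold change of all members with a pseudocount of 1. With a pseudocount of 0.1 its value was 4.28, and Pfkp came first with 4.31. Bnip3 lies on chromosome 7 from 138890836 to 138909519 and reached 439.6 and 418 FPKM in the placodes, with 23.6 and 20.3 in the SMGs. Its log2 fold change of 4.23 (SE 0.08, adjusted p = 2.29e-07) ranked 118 among the 13193 tested features. An annotated gene overlaps 22.2% of its exon bases, and the library kit does not mark strand, so their reads cannot be told apart. Its relative Bnip3l was at 218 and 204 FPKM in the placodes and 44.1 and 43.6 in the SMGs (log2 fold change 2.24). Bnip3l is also known for clearing mitochondria from maturing red cells. Erythroid markers summed to 0.224 and 0.428 FPKM in the placodes and to 2968 and 2977 in the SMGs. Their part in the Bnip3l values was not tested. Bnip3 held 66.9% and 67.2% of the pair in the placodes and 34.9% and 31.8% in the SMGs.

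Adm, which encodes the vasodilator peptide adrenomedullin, had an FPKM of 10.7 and 10.1 in the placodes and 0.843 and 0.255 in the SMGs (log2 fold change 2.91, SE 0.19). Ankrd37, a small ankyrin-repeat gene and HIF target, was at 25.5 and 22.1 FPKM against 2.82 and 2.49 (log2 fold change 2.76), and 26.4% of its exon bases overlap other genes. Ddit4, whose product REDD1 restrains mTORC1, reached 226 and 199 FPKM in the placodes, with 47.1 and 41.7 in the SMGs (log2 fold change 2.23). In each of these genes both placode samples were above both SMG samples, as they were in 41.6% of all tested features. The angiogenic factor gene Vegfa was at 88.5 and 91.0 FPKM in the placodes and 24.6 and 23.1 in the SMGs (log2 fold change 1.87, SE 0.05, adjusted p = 8.44e-07), beside the lower endothelial markers given above. Mxi1, an antagonist of MYC, had 23.8 and 23.6 FPKM against 7.05 and 6.53 (log2 fold change 1.67). For P4ha1, a collagen prolyl hydroxylase subunit, values were 55.8 and 52.3 FPKM in the placodes and 25.1 and 20.1 in the SMGs (log2 fold change 1.23). P4ha2, the related subunit, had 26.3 and 22.9 against 9.003 and 7.66 (log2 fold change 1.46), in samples whose mesenchyme markers summed to 212 and 208 FPKM in the placodes and 2107 and 2053 in the SMGs. Ndrg1 was the smallest of the group, with 12.0 and 10.9 FPKM in the placodes and 5.98 and 6.64 in the SMGs (log2 fold change 0.76, adjusted p = 3.44e-04). Car9, the membrane carbonic anhydrase often used as a marker of hypoxic tissue, was at 0.499 and 0.218 FPKM in the placodes and 0.783 and 0.505 in the SMGs, too low to be tested.

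HIF binds a core of either ACGTG or GCGTG, and promoters of members that were higher together are shown here with those of members that were not. Promoters were taken from RefSeq on GRCm38.p6, and 33 of the 37 symbols matched. ACGTG or its reverse complement CACGT, which overlap in CACGTG, occurred in the 250 bases before the start for 24 of 48 member promoters, against 21.4% of 12777 promoters of tested genes and 16.6% of all 32851. Among members at least 2-fold higher, 19 of 40 promoters held the motif, and among the other members 5 of 8. With GCGTG and its reverse complement CACGC counted as well, 38 of the 48 member promoters (79.2%) held a match. The share was 56% of the 12777 promoters of tested genes and 38.6% of all promoters. Among members at least 2-fold higher, 31 of 40 promoters held such a match, and among the other members 7 of 8. Capitals mark ACGTG on either strand only, and bases in annotated exons were left off the end. Bnip3, Egln3, Slc16a3, Pgk1 and Hk2 had higher values in the placodes and hold ACGTG. Adm was higher and holds no ACGTG in this window, but the GCGTG form 2 times. Bnip3, Slc16a1 and the first listed start of Pfkm hold a match as CACGTG. This form occurred in 5 of the 48 member promoters (10.4%), against 8.16% of promoters of tested genes and 6.02% of all. Among members at least 2-fold higher, 2 of 40 promoters held it. Slc16a1 and Pfkm did not pass the test.
Bnip3 (chr7:138909520-138909756, minus strand): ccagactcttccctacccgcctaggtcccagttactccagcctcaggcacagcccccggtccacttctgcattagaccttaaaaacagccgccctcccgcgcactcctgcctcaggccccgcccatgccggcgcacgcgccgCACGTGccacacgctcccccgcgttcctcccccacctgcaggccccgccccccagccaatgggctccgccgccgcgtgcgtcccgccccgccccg
Egln3 (chr12:54203875-54204124, minus strand): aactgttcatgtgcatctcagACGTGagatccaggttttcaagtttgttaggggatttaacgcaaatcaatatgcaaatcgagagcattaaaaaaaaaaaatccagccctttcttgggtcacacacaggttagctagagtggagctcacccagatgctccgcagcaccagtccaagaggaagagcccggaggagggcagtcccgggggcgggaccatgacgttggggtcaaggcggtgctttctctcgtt
Slc16a3 (chr11:120948817-120949052, plus strand): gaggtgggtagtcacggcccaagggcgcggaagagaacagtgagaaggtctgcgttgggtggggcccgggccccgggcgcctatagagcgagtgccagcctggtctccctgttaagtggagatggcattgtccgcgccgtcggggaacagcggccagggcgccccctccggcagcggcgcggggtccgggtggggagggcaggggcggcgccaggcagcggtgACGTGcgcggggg
Pgk1 (chrX:106186850-106187099, plus strand): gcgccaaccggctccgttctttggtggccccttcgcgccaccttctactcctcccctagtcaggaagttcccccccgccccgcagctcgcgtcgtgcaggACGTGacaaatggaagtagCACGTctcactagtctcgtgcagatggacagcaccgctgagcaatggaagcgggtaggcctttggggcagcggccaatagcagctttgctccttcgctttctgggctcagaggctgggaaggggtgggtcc
Hk2 (chr6:82774455-82774704, minus strand): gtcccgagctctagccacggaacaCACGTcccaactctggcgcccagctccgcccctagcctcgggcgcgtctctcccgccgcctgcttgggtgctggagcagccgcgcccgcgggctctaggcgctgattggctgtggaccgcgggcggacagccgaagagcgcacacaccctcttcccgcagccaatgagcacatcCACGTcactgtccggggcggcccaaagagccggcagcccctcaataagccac
Adm (chr7:110627407-110627656, plus strand): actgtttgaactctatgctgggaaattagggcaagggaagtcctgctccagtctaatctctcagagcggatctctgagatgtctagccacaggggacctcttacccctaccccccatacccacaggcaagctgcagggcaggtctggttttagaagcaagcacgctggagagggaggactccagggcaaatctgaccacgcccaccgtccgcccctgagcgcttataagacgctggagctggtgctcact
Slc16a1 (chr3:104638414-104638663, plus strand): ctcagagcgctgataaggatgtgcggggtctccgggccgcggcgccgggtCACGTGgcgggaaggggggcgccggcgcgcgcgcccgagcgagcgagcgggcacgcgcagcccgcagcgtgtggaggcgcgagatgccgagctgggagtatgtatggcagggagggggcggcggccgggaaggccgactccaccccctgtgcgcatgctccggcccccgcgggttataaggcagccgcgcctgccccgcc
Pfkm (chr15:98092339-98092588, plus strand): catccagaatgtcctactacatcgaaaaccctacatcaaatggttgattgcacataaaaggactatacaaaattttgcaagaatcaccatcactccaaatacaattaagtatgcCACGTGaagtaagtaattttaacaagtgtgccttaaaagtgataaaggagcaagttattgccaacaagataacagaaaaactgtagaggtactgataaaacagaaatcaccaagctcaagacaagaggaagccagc
In the printed bases the ACGTG match nearest the start lay 27 bases before it in Slc16a3, 52 in Hk2, 107 in Bnip3, 131 in Pgk1 and 229 in Egln3, and Slc16a3 holds another in the bases left off. A match describes the letters only, and binding was not measured.

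Other genes of the same pathways, from lists that were not part of the members above, differed in both directions. So did all tested features, of which 35.7% were called higher and 40.4% lower, 14.1% and 15.2% by at least 2-fold. Of 25 further glycolysis isozymes and regulators, 14 were tested, 7 were higher and 3 lower, with 1 at least 2-fold in each direction. Pfkfb3, which makes the activator of phosphofructokinase and is a HIF target, was at 54.8 and 51.5 FPKM in the placodes and 4.56 and 4.24 in the SMGs (log2 fold change 3.33, SE 0.07, adjusted p = 3.18e-07). Slc2a4, the insulin-responsive glucose transporter gene of muscle and fat, was lower, at 1.74 and 2.36 against 9.06 and 9.22 (log2 fold change -1.74). The 19 tested enzymes of glycogen metabolism, the pentose phosphate pathway and gluconeogenesis had a median log2 fold change of 0.06, with 8 higher and 7 lower. Pgm1 and Gbe1, which lead into glycogen, were higher by 2.03 and 1.98 on the log2 scale, and Pck2, H6pd and Pygm were lower (-2.05, -1.52 and -1.13). Of 12 tested genes that act on the entry of pyruvate into mitochondria, for or against it, 2 were higher and 4 were lower. Their log2 fold changes lay between -0.99 and 0.58. The lowest was that of Pdk2, a relative of Pdk1 that was lower where Pdk1 was higher.

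The next counts also stand beside the 76.2% of all tested features that were called. Among 17 regulators of the HIF pathway, 11 were higher and 3 lower, with a median log2 fold change of 0.30. Those at least 2-fold higher were Cited2, an inhibitor of HIF transactivation, Siah2, a ubiquitin ligase of the hydroxylases, and Arnt2, a partner of HIF-α in neural tissue, with log2 fold changes of 1.39, 1.26 and 1.21. Arnt had 12.9 and 12.3 FPKM in the placodes and 28.3 and 26.1 in the SMGs (log2 fold change -1.05), and Hif3a had 1.39 and 1.36 against 7.97 and 8.48 (log2 fold change -1.96). Of 36 further hypoxia response genes tested, 24 were higher and 8 lower past the threshold, 16 and 7 of them by at least 2-fold, and the median was 0.68. Pfkfb3, Pfkfb4, Gbe1 and Gys1 stand in both this list and those above, and Tfrc is also among the reference genes. Tfrc, the transferrin receptor gene, was at 175 and 167 FPKM in the placodes and 21.5 and 19.1 in the SMGs (log2 fold change 3.02), and Stc2, which encodes stanniocalcin-2, at 12.1 and 10.3 against 0.866 and 0.306 (log2 fold change 2.97). The lowest of the list were Fos, an immediate early gene (log2 fold change -3.88), Car12, a carbonic anhydrase gene related to Car9 (-3.16), and Angptl4, a lipoprotein lipase inhibitor gene (-2.86). Angptl4 was at 2.62 and 2.88 FPKM in the placodes and 26.0 and 26.4 in the SMGs.

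**Figure D4:**
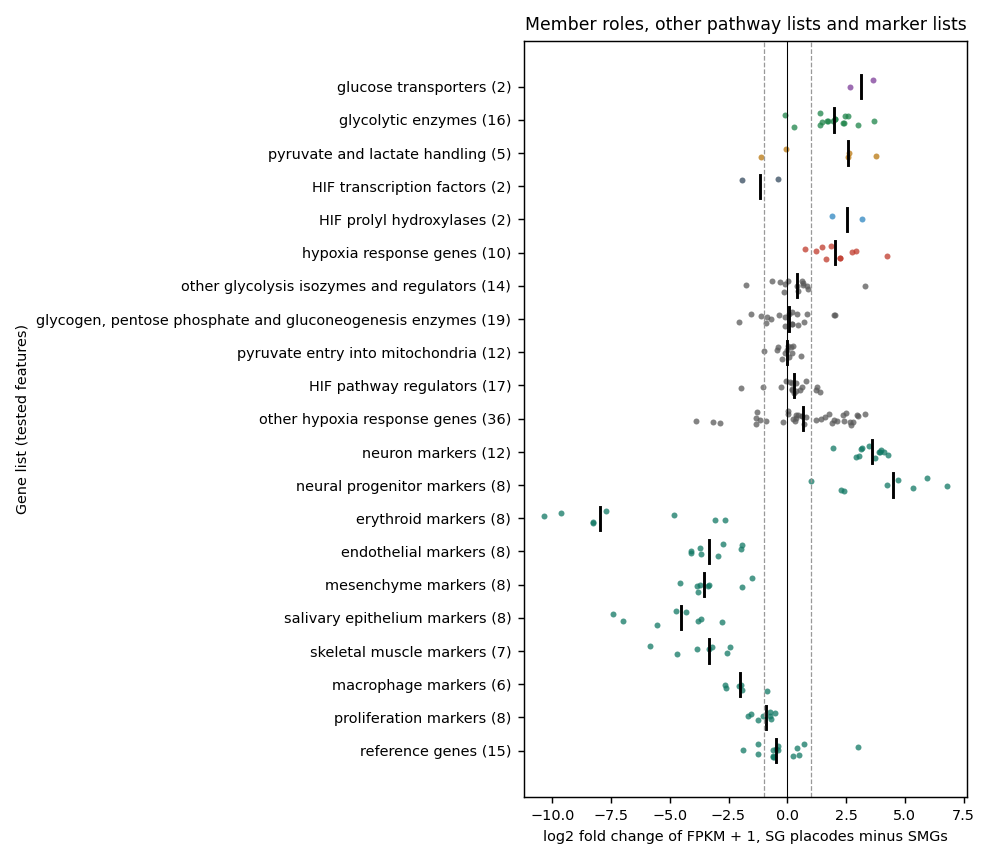
Log2 fold change of FPKM + 1, SG placodes minus SMGs, for the tested features of each list, with the number tested in parentheses, a black bar at the median and dashed lines at a 2-fold difference. Upper rows are the member roles in their colours, grey rows are other pathway lists, and green rows are marker and reference lists. The medians of the glycolytic enzymes (1.98) and hypoxia response genes (2.05) lie to the right of those of the grey rows, which range up to 0.68.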

How the data were processed

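Total RNA of 2 samples of PSC-derived SG placodes and 2 samples of E12.5 SMGs was sequenced (NEBNext Ultra libraries, paired ends, Illumina). The authors mapped the reads with HISAT2 and deposited FPKM per gene and sample. The submitters' processing notes name GRCm38, and the HISAT2 version, the annotation and the FPKM program are not given in the sources used here. FPKM values hold no counts, so depth is unknown and no counting interval is given. Of 22036 Ensembl features, 22022 were found in GENCODE M21, from which positions and shared sequence were taken. A further 2735 assembled loci were tested but not named. limma 3.58.1 in R 4.3.3 (eBayes with trend, group as the only term) was applied to log2(FPKM + 1) over all features with a mean FPKM of at least 1. A feature was called at an adjusted p below 0.05. The scripts were tested on simulated data. All members are named. Of the other pathway lists, up to 3 genes with the highest and up to 3 with the lowest log2 fold change are named per list, among those called and at least 2-fold apart. Of each marker list the gene with the highest mean FPKM is named, and reference genes may be named. Eno1b, Pdk2 and the epithelial markers at 0 were chosen after their values were seen. Genes shared between lists are also named. The members and lists were chosen with earlier results of these data known. Alternatives were another pseudocount or minimum, 4 other scalings, a replicate block, other eBayes settings, each sample left out, and, added after the data were seen, members without shared sequence.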

Additional observations from a re-analysis of the deposited data

How the results depend on the processing

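With other pseudocounts, minimums, scalings or limma settings 33 to 35 members were called, 31 or 32 of them at least 2-fold apart. The main fit tested 37 member features, that with no minimum 38, and that with a minimum mean FPKM of 5 tested 35. Of all tested features, 41.3% were called with no minimum and 77.1% with a minimum of 5. Under the other settings of this kind the share was 74.4% to 76.5%. With the replicate number as a block, 34 members were called, 31 higher and 3 lower. Same-numbered samples did not deviate together over all tested features (r = -0.035 across 13193 features). In both groups, however, sample 1 had the higher summed FPKM of the glycolytic enzymes. The sums were 5952 and 5640 in the placodes and 1506 and 1323 in the SMGs. Whether the numbers pair the samples is therefore not known. Between the 4 fits with a sample left out, in which the lone sample of a group is assumed to vary like the others, the median log2 fold change of the glycolytic enzymes was 1.90 to 2.06, that of the hypoxia response genes 1.99 to 2.08, and the ratio of summed enzyme FPKM 3.85 to 4.38. The hypoxia median was 1.87 with no minimum of FPKM, where Car9 entered, and 1.67 without the members of shared sequence, where Bnip3, Bnip3l and Ankrd37 dropped out. The log2 fold change of Slc16a1 changed sign under TPM (0.009455), median-ratio scaling (0.004295) and quantile normalization (0.001175), and ranged from -0.1301 to 0.04 with a sample left out, being 0.04 without the first SMG sample. None of these passed the threshold. The small Aldoa feature lost its call under the block (adjusted p = 0.0609), with no minimum (0.0766) and with any sample left out (0.0528 to 0.108), and Gapdh lost it with no minimum (0.0765), a fit over 24771 features. Over all features, 3877 were called at least 2-fold apart, and 2475 with a minimum mean FPKM of 5, where 9679 were tested. The unknown depth leaves the precision of low values such as those of Car9, Adm and Epas1 without a counting estimate.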
